A study of Quercus lobata with 12 samples.

Results

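The genes described here were those whose transcript level set a single maternal family of valley oak (Quercus lobata) apart from all other seedlings in a leaf RNA-seq experiment. They were selected on the measured values themselves. The count of each gene was divided by the total of its library and scaled to a total of 1000000 counts (CPM). A gene was taken as higher in a family when the lowest of its 4 seedlings reached at least 1 CPM and at least 2 times the highest of the other 8 seedlings. It was taken as lower when the highest of the 4 lay at or below the lowest of the other 8 divided by 2, with that lowest value at 1 CPM or more. Of 39373 genes in the table, 63 met this rule, 42 as higher and 21 as lower in their family. Because the family contrast chose them, their family differences are given as a description with no test.

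The experiment compared leaves of 12 seedlings from 3 maternal families, YORK-09, LAY-15 and HV-11, with 4 seedlings in each. Every family was grown from the open-pollinated acorns of a single mother tree, so that its seedlings shared their mother but not necessarily their father, and mother tree, source population and family cannot be told apart. All seedlings were 5 months old when spraying began. In each family 2 seedlings were sprayed for 27 days with 50 µM 5-Azacytidine, an inhibitor of DNA methylation, in a surfactant solution, and the 2 controls received the surfactant solution alone. RNA of a control and a treated seedling of each family was extracted on day 30 of October, and of the other pair on day 19 in HV-11 and LAY-15 and on day 16 in YORK-09. The families were picked by the study for large phenotypic differences between treated and control plants, which limits them as a sample of the species.

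Seedlings of a maternal family share alleles from their mother, and transcript levels in plants are in part inherited, through sequence variants near a gene that change its own transcription and through variants elsewhere that change its regulators. Plant genomes also hold genes that are present in some individuals and absent from others, often within clusters of duplicated neighbours, and a read that differs from the reference sequence can fail to be placed. A family difference in a count can carry any of these, and counts of reads do not separate them. The deposited identifiers were not paired with gene names: 0 of them were found in RefSeq's gene table for valley oak, which follows another assembly. Genes are therefore given by identifier, with no function, position or sequence, and the leaf origin of the libraries could not be checked against marker genes.

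Libraries held between 9926728 and 11570198 counts, so that 1 CPM stood for 9.93 to 11.6 reads, and between 25687 and 27483 genes were detected in each. The first principal component, with 30.0% of the variance, placed the LAY-15 seedlings of day 19 at 133 and 74.3, whereas the other 10 lay between -49.2 and 10.2. Those 2 libraries thus stood apart. The sizes of the sets and the tests of all 63 genes are also given without them, and LAY-15 values are given by day where seedlings are listed. The treatment test within LAY-15 cannot be run without them, since 1 seedling of each treatment is left. No 2 libraries agreed within sampling noise, the smallest chi-square per degree of freedom over 66 pairs being 26.3.

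The 63 genes were spread unevenly over the families. LAY-15 was marked by 31 genes, of which 18 were higher (0.0457% of all genes) and 13 lower (0.033%). YORK-09 was marked by 19 genes, 13 of them higher (0.033%) and 6 lower (0.0152%). HV-11 was marked by 13 genes, with 11 higher (0.0279%) and 2 lower (0.00508%). These percentages are the yield of the rule and carry no reading of their own. Most of the genes rested on modest read numbers: the side with the higher level averaged under 10 CPM in 37 of 63 genes and over 50 CPM in 5.

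**Figure D1:**
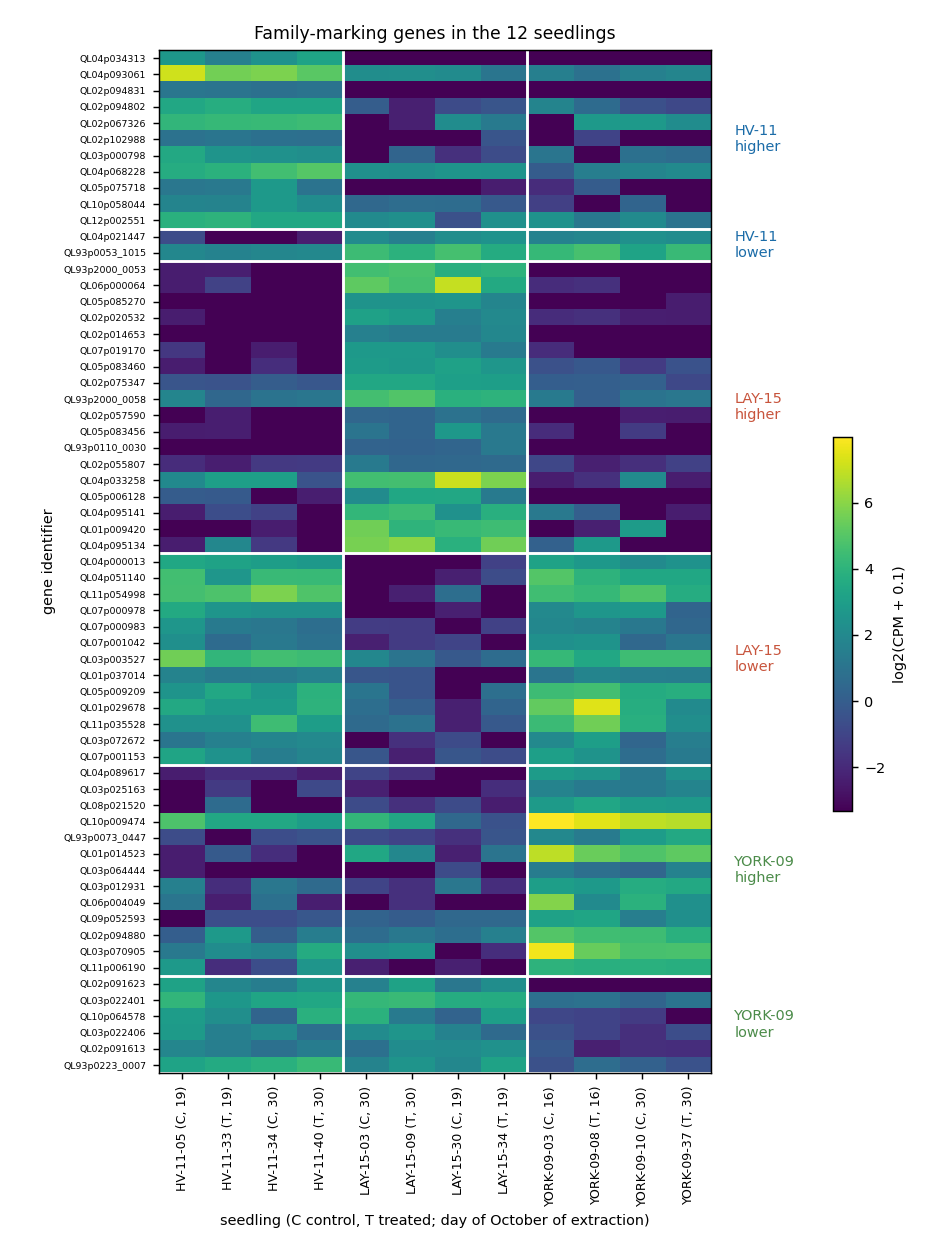
Levels of the 63 family-marking genes, as log2(CPM + 0.1), with a row for each gene grouped by family and direction and a column for each of the 12 seedlings (C control, T treated, followed by the day of October of extraction). The 18 LAY-15-higher genes form the tallest block, and 5 genes are at 0 throughout the low side.

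Some of these differences were of the kind in which a transcript was close to undetected on the low side. In 10 of the 42 higher genes, each of the other 8 seedlings held no more than 3 reads: 8 of these marked LAY-15, 2 marked HV-11 and 0 marked YORK-09. Among the 21 lower genes, the 4 seedlings of the family each held no more than 3 reads in 2, of which 1 marked LAY-15 and 1 YORK-09. A count of exactly 0 in every low-side seedling was seen in 5 genes. In the others at least 1 low-side seedling held more than 3 reads, and the low side ranged from near 0 in most seedlings to measurable in all. QL04p051140 held 0, 0, 1 and 6 reads on its low side, whereas QL04p093061 held at least 18 in each low-side seedling. As a measure of separation, the lowest seedling of the high side was divided by the highest of the low side, the latter set to no less than 0.302 CPM (3 reads in the smallest library). Its median was 2.91 over the 63 genes, with 20 genes at 4 or more and 21 under 2.5.

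The rule takes its strictness from the number of seedlings and from the fold. The weakest genes it admitted had ratios between 2.00 in the YORK-09-higher set and 2.53 in the HV-11-lower set, and the strongest it refused had ratios between 1.82 in the LAY-15-lower set and 1.97 in the YORK-09-higher set. The YORK-09-higher gene nearest to the limit had 151 reads in its lowest YORK-09 seedling and 78 in the highest of the others. The gene just outside had 503 and 256 reads. Between a fold of 1.5 and 2 lay 1 further gene for HV-11 higher, 7 for HV-11 lower, 8 for LAY-15 higher, 16 for LAY-15 lower, 7 for YORK-09 higher and 3 for YORK-09 lower, so that membership close to the limit was a matter of degree.

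**Figure D2:**
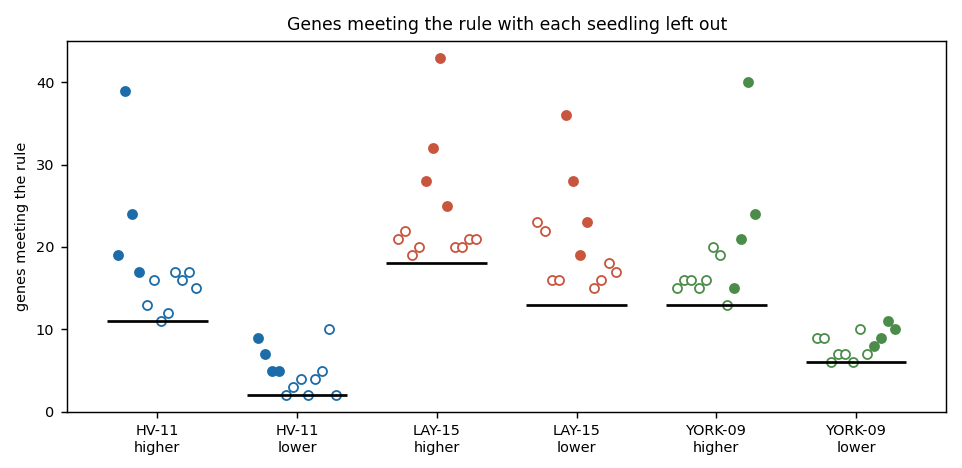
Number of genes meeting the rule for each family and direction with all 12 seedlings (black line) and with each seedling left out in turn (circles, filled where the seedling left out belongs to the marked family). Counts never fell below the full set, because a rule over fewer seedlings is easier to meet, and the highest was 43 for LAY-15 higher without LAY-15-30.

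Single seedlings set the size of several sets. Leaving out HV-11-33 raised the HV-11-higher set from 11 to 39 genes, and leaving out YORK-09-10 raised the YORK-09-higher set from 13 to 40. The LAY-15-higher set rose from 18 to 43 genes without LAY-15-30, and the LAY-15-lower set from 13 to 36 without LAY-15-03. Among the small sets, HV-11 lower rose from 2 to 10 and YORK-09 lower from 6 to 11 without YORK-09-10. Without both day 19 LAY-15 seedlings the LAY-15 sets held 70 and 40 genes. With library sizes adjusted by TMM, a scaling that balances the bulk of genes between libraries, the rule found 8 HV-11-higher and 10 YORK-09-higher genes, while LAY-15 stayed at 18 and 13.

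HV-11 was marked mostly by higher levels. For each family and direction the 2 most separated genes are described in full. QL04p034313 was present in HV-11 alone. Its levels were 6.31, 2.91, 5.39 and 9.41 CPM in the 4 HV-11 seedlings (05, 33, 34 and 40), with 266 reads in all, and 0 reads were counted in each of the 8 others. The lowest HV-11 seedling was thus at least 9.64-fold higher than the level of 3 reads in the smallest library.

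QL04p093061 was transcribed in all 12 seedlings and differed in degree. It stood at 143, 47.1, 53.9 and 34.5 CPM in HV-11, against 2.01 to 4.65 CPM in LAY-15 and 1.75 to 3.48 CPM in YORK-09. The untreated day 19 seedling, HV-11-05, was the highest, while LAY-15 and YORK-09 overlapped. The pooled level of HV-11 was 21.5-fold that of the other seedlings (95% interval 19.0 to 24.4, exact binomial on the pooled reads). Such intervals cover counting error only, not the spread between seedlings. Across the 11 HV-11-higher genes, the highest of the 4 seedlings was between 1.19 and 4.14 times the lowest, and in 5 of them this spread stayed under 2. Their HV-11 means ran from 1.80 to 69.5 CPM, with a median of 6.67, and in 4 of the 11 every other seedling was under 1 CPM.

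The 2 genes lower in HV-11 contrasted in the same way. QL04p021447 had 0.519, 0, 0 and 0.0932 CPM in HV-11 and between 2.81 and 5.34 CPM in the others, with 7 reads in HV-11 against 353. QL93p0053_1015 was instead held at a low and even level in HV-11, with 3.72, 3.10, 3.5 and 3.73 CPM. In LAY-15 it stood at 21.8, 15.2, 25.3 and 12.3 CPM and in YORK-09 at 18.8, 25.7, 9.42 and 20.1 CPM. Its pooled level in the other families was 5.25-fold that of HV-11 (interval 4.45 to 6.23).

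**Figure D3:**
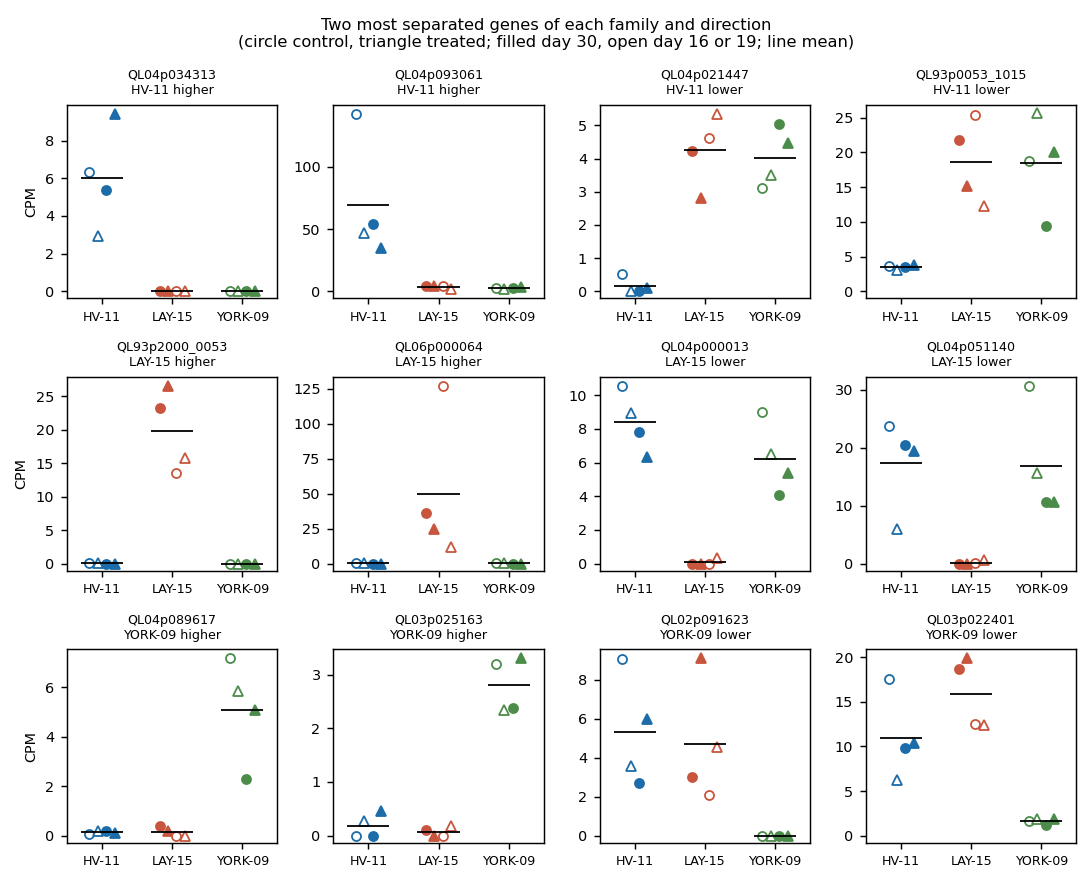
CPM of the 12 genes described in full, 2 for each family and direction, in every seedling (circles control, triangles treated, filled symbols day 30, open symbols day 16 or 19, lines family means). In each panel the 4 seedlings of the marked family lie wholly above or below the other 8, as the rule requires.

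LAY-15 carried the largest sets, and its higher genes had the largest median separation of the 6 sets, 4.03. QL93p2000_0053 was found at 23.3 and 26.5 CPM in the day 30 seedlings (03 and 09) and at 13.6 and 15.8 CPM in the day 19 seedlings (30 and 34). In the other 8 seedlings a single read was counted in each of HV-11-05 and HV-11-33 and none in the rest. The 820 reads of LAY-15 against 2 gave a pooled ratio of 866, with an interval of 239 to 7166 that shows how little the low side constrains it.

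QL06p000064 was as sharply confined but far more variable. It reached 36.2, 24.9, 127 and 11.7 CPM in LAY-15 seedlings 03, 09, 30 and 34, a spread of 10.9-fold within the family, and no more than 0.364 CPM elsewhere. The highest and the lowest value were both from day 19. Spread within LAY-15 was over 4-fold in 6 of the 18 higher genes and under 2-fold in 7. The LAY-15 means of the 18 genes ran from 1.39 to 59.7 CPM, with a median of 7.11, and in 12 of them every other seedling was under 1 CPM.

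Both fully described LAY-15-lower genes were near 0 in that family. QL04p000013 had 0, 0, 0 and 0.35 CPM in LAY-15, 10.5, 8.93, 7.81 and 6.34 CPM in HV-11 and 8.99, 6.51, 4.09 and 5.36 CPM in YORK-09. QL04p051140 had 0, 0, 0.1 and 0.526 CPM in LAY-15 and between 6.01 and 30.6 CPM in the other 8, the lowest being HV-11-33 and the highest YORK-09-03. In both genes the treated day 19 seedling, LAY-15-34, was the highest of its family, with 4 of 4 reads and 6 of 7. Over the 13 LAY-15-lower genes, the mean of the other 8 seedlings ran from 2.74 to 33.9 CPM, and in 8 of them no LAY-15 seedling reached 1 CPM.

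Within LAY-15, the day 19 and day 30 seedlings did not overlap in 11 of 18 higher genes, 4 of them higher and 7 lower on day 19, and in 4 of 13 lower genes. The share over the 25477 genes that reached 1 CPM in any seedling was 45.1%. Day of extraction and the seedlings themselves cannot be told apart within LAY-15.

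YORK-09 genes were seldom absent elsewhere, and 4 of the 13 higher genes had all other seedlings under 1 CPM. QL04p089617 stood at 7.17, 5.83, 2.28 and 5.09 CPM in YORK-09 (03, 08, 10 and 37) and at no more than 0.182 CPM in HV-11 and 0.403 CPM in LAY-15. The pooled ratio was 36.9 (interval 20.7 to 72.4). QL03p025163 was low but even, with 3.20, 2.33, 2.38 and 3.30 CPM in YORK-09 and at most 0.466 CPM elsewhere. Its ratio of 22.1 (interval 11.9 to 45.4) rested on 123 reads against 11.

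Of the YORK-09-lower genes, QL02p091623 was at 0 reads in all 4 YORK-09 seedlings. It had 9.08, 3.55, 2.69 and 5.96 CPM in HV-11 and 3.02, 9.10, 2.11 and 4.56 CPM in LAY-15, 435 reads in all. The lowest of these was at least 6.98-fold higher than the level of 3 reads. QL03p022401 was still transcribed in YORK-09, at 1.64, 1.85, 1.14 and 1.88 CPM, and stood between 6.19 and 19.9 CPM in the others, a pooled ratio of 8.19 (interval 6.44 to 10.6).

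Of the 5 genes over 50 CPM on the high side, 3 marked YORK-09, and 2 of these are named here after their values were seen. QL10p009474 had 253, 177, 119 and 110 CPM in YORK-09, and its other seedlings ranged from 0.613 CPM in LAY-15-34 to 27.9 CPM in HV-11-05. QL03p070905 showed how strongly a seedling could depart within its own family, with 216 CPM in YORK-09-03 and 40.7, 25.5 and 26.8 CPM in the other three. The control seedling of day 16 was the highest of its family in both. Over the 13 YORK-09-higher genes, the highest YORK-09 seedling was between 1.17 and 14.0 times the lowest, with 4 genes over 4-fold and 4 under 2-fold.

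Several genes of the same set were neighbours in the table, whose rows are ordered by identifier. A gene of the same family and direction occupied the very next row for 12 of the 63 genes, and one lay within 10 rows for 16 (25.4%). These formed 7 runs, 6 of 2 genes and 1 of 4, and they are named here after their values were seen. What the numbers in the identifiers stand for was not stated, so row order is given and no distance. The library kit does not mark strand, reads placed at several loci had been removed, and it was not tested whether neighbours overlap, are antisense to each other or are near-identical copies. The values of neighbours are therefore uncertain as separate genes.

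The longest run lay in LAY-15 and in the lower direction. QL07p000978 and QL07p000983 filled successive rows, QL07p001042 followed 5 rows later and QL07p001153 another 8. In LAY-15 the first had 0, 0, 0.1 and 0 CPM and the last 0.705, 0.0968, 0.703 and 0.526 CPM, against 1.16 to 11.7 CPM and 1.52 to 9.51 CPM in the other seedlings. QL07p000983 had at most 0.35 CPM in LAY-15 and at least 1.25 CPM elsewhere, and QL07p001042 at most 0.402 and at least 1.33 CPM. On the log2 scale, with 0.5 CPM added to both means, LAY-15 was below the other 8 by values of -2.18 to -3.56 across the 4 genes.

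Within these 15 rows stood 11 genes outside the set, of which 4 averaged at least 1 CPM. LAY-15 had the lower mean in all 4, with log2 values between -2.47 and -0.14. QL07p001139 was the strongest, at 0.0502 CPM in LAY-15 and 2.56 CPM in the others, and it missed the rule because a seedling of another family was at 0. QL07p001098 stood between lowered neighbours at 17.2 and 19.1 CPM, a log2 value of -0.14, so that the lower level did not extend to every gene of the run. Among the 15 rows on either side, 19 genes averaged at least 1 CPM, LAY-15 had the lower mean in 13, and the median log2 value was -0.24. Their values ran from -2.98 at QL07p000829, before the run, to 1.06 at QL07p001290, after it. QL07p001183, also after it, stood at -2.45, so strongly lower values were not confined to the run.

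**Figure D4:**
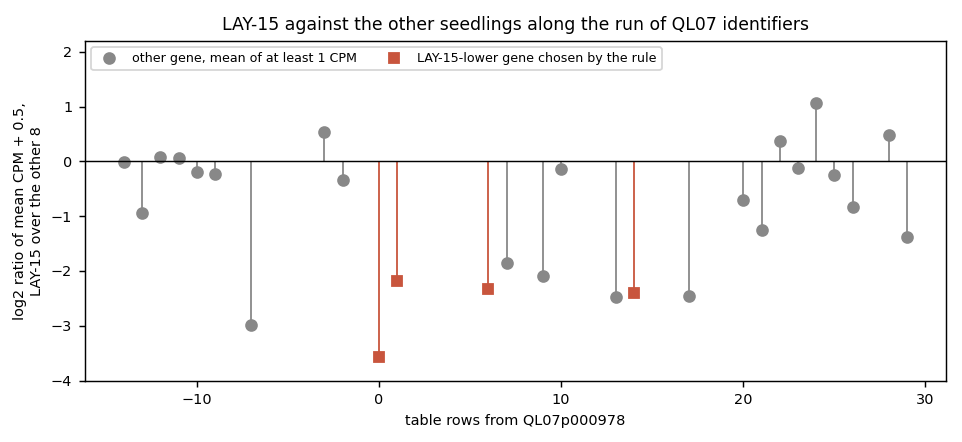
Log2 ratio of the mean CPM of LAY-15 to that of the other 8 seedlings, with 0.5 CPM added to both, for genes averaging at least 1 CPM, plotted by table row counted from QL07p000978. The 4 genes chosen by the rule (squares) lie between -2.18 and -3.56, and genes outside the set (circles) between them reach from -2.47 to -0.14. Circles on either side of the run reach from -2.98 to 1.06.

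The neighbouring pair QL93p2000_0053 and QL93p2000_0058 moved together in LAY-15. The second gene had 24.5, 29.9, 14.6 and 15.9 CPM in the 4 LAY-15 seedlings, and the ratio of the first to the second, with no correction for length, stayed between 0.887 and 0.989. Outside LAY-15 they parted: QL93p2000_0058 was present at 0.972 to 3.46 CPM in all 8 seedlings, in which QL93p2000_0053 totalled 2 reads. The identifiers beginning QL93 held 6 of the 63 genes (9.52%) and 2.19% of all genes.

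The pair QL04p095134 and QL04p095141 also kept a narrow ratio in LAY-15, between 2.79 and 3.37. The first had 50.5, 64.3, 14.6 and 46.3 CPM there, and the control seedling of day 19, LAY-15-30, was the lowest in both genes. Outside the family, QL04p095134 reached 6.81 CPM in YORK-09-08 and 3.64 CPM in HV-11-33, both treated. The remaining LAY-15-higher pair, QL05p083456 and QL05p083460, had ratios from 0.179 to 0.747, and neither exceeded 0.778 CPM outside LAY-15.

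In HV-11 the pair QL02p094802 and QL02p094831 was higher. The first had 10.8, 13.0, 9.97 and 9.78 CPM in HV-11 and 0.0968 to 3.28 CPM in the others. The second had 2.07, 1.91, 1.71 and 1.86 CPM in HV-11 and 0 reads in all 8 others, and the ratio of the pair ran from 5.21 to 6.81. In YORK-09 the pairs QL02p091613 with QL02p091623 and QL03p022401 with QL03p022406 were lower. Of these, QL02p091613 had 0.778, 0.0972, 0.19 and 0.179 CPM in YORK-09 and at least 1.71 CPM elsewhere, and QL03p022406 had at most 0.605 CPM in YORK-09 and at least 1.40 CPM elsewhere.

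The families that a gene did not mark mostly overlapped in it. For the 13 HV-11 genes, LAY-15 and YORK-09 did not overlap in 1, QL04p068228, where the percentage over the 25477 genes reaching 1 CPM was 6.41%. For the 31 LAY-15 genes, HV-11 and YORK-09 did not overlap in 2, QL02p020532 and QL05p083460, against 4.69% of genes. For the 19 YORK-09 genes, HV-11 and LAY-15 did not overlap in 3, QL09p052593, QL11p006190 and QL93p0223_0007, against 6.17%. With so few genes these shares are close to the percentages over all genes in HV-11 and LAY-15, and no difference was tested. QL93p0223_0007 was ordered in all families: YORK-09 lay at 0.605 to 1.56 CPM, LAY-15 at 3.22 to 9.11 CPM and HV-11 at 9.25 to 19.5 CPM.

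Treatment labels took no part in the choice of genes. The values of all seedlings did, and a gene that shifts strongly between treated and control seedlings meets the rule less easily. A low count of called genes can therefore be partly set by the choice. All 63 genes passed the filter on low counts and were tested with the 23791 genes of the table that did. With edgeR's quasi-likelihood test, extraction day in the model and Benjamini-Hochberg adjustment over all genes, 0 of 63 were called between treated and control seedlings at an adjusted p under 0.05, where 0% of all genes were called. An unadjusted p under 0.05 was found for 0 of the 63 genes and for 2.8% of all genes. DESeq2 called 0 of the 63 and 0.0967% of all genes, with 1 of the 63, QL06p004049, under an unadjusted 0.05 beside 5.09% of all genes. This model, like that of the study, holds no term for family, the factor by which the genes were chosen to vary. With the 6 pairs of family and extraction day as a block, the count called remained 0, where edgeR called 0 and DESeq2 61 of all 23791 genes. An unadjusted p under 0.05 was found for 2 of the 63 genes in edgeR (2.96% of all genes) and for 5 in DESeq2 (6.12%). Without the day 19 LAY-15 seedlings edgeR again called 0, with 0 of the 63 under an unadjusted 0.05 beside 3.57% of all genes.

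In direction the genes divided evenly, 31 with a higher and 32 with a lower estimate in treated seedlings. Their median log2 change was -0.05, beside -0.02 over all genes tested. The medians of the sets were 0.03 for LAY-15 higher, -0.45 for LAY-15 lower, -0.07 for HV-11 higher, 0.18 for YORK-09 higher and 0.25 for YORK-09 lower, while both HV-11-lower genes had lower estimates. A treatment response of the genes was thus not detectable in these fits, which does not show that there was none. A gene near 0 outside its family could pass the filter through that family alone. For such a gene the comparison is in effect one of 2 treated seedlings with 2 controls.

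Within families, where 2 treated seedlings met 2 controls, the own genes of each family gave the same count. In edgeR none of the 13 HV-11 genes, the 31 LAY-15 genes or the 19 YORK-09 genes was called, a count of 0, with 0% of all genes called in each family. Unadjusted p-values under 0.05 were found for 0, 1 and 1 of the genes in that order, beside 1.9%, 4.44% and 3.68% of all genes. The LAY-15 gene was QL04p000013, with 0 and 0 CPM in the controls and 0 and 0.35 CPM in the treated seedlings, a difference that rests on 4 reads of 1 seedling. DESeq2 called 0 of the own genes in each family, with 0.303%, 0.315% and 0.277% of all genes called.

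The YORK-09 gene was QL06p004049, named after its values were seen. Its controls had 58.4 and 14.9 CPM and its treated seedlings 4.18 and 5.00 CPM, so that they did not overlap. The log2 change in treated YORK-09 seedlings was -3.03 ± 0.89 in edgeR, with an adjusted p of 1.0 in edgeR and 0.0765 in DESeq2. No SE is reported by this edgeR test. The value after ± is the unsigned log2 change divided by the square root of the test's F statistic, an approximate SE. HV-11, in which this gene was not a marker, showed the same order at a far lower level, 1.99 and 1.71 CPM in controls and 0.0911 and 0.0932 CPM in treated seedlings. LAY-15 did not show this order: its controls had 0 reads, and its treated seedlings had 2 reads (0.194 CPM, LAY-15-09) and 0 reads (LAY-15-34). A further YORK-09-higher gene, QL02p094880, lay outside the own-family comparison and is named after its values were seen. DESeq2 called it between treated and control seedlings of HV-11, where 0.303% of all genes were called. It had 6.92 and 2.7 CPM in treated and 0.951 and 0.898 CPM in control seedlings (DESeq2 log2 change 2.43 ± 0.62 (SE), adjusted p = 0.0308). Its adjusted p in edgeR was 1.0. Whether the families differ in this response was not tested.

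Extraction time was the other label that the choice did not use. The same limit holds, since a gene that shifts strongly between days meets the rule less easily. Between the 6 seedlings of day 30 and the 6 of days 16 and 19, with family and treatment in the model, edgeR called 0 of 63 genes and 0% of all genes. DESeq2 called 0 of 63 and 0.24% of all genes, with 4 of the 63 under an unadjusted 0.05 beside 8.08% of all genes. In edgeR an unadjusted p under 0.05 was found for 1 of the 63, beside 3.75% of all genes. The 1 gene was QL07p001153 of the LAY-15 run, lower on day 30, with an adjusted p of 0.952 in edgeR. Its log2 change was -1.21 ± 0.41 (approximate SE from F, as above). Estimates were higher on day 30 for 28 and lower for 35 genes, and the median was -0.04 beside -0.02 over all genes. Leaving out the day 19 LAY-15 seedlings raised the number under an unadjusted 0.05 to 8 of 63 (12.7%), where 2.55% of all genes were, with 0 called after adjustment. Then 22 estimates were higher and 41 lower on day 30, with a median of -0.22 beside -0.03 over all genes.

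Since the 63 genes were chosen on all 12 seedlings, no seedling was left in which their family difference could be tested. The same rule was therefore applied to the 6 seedlings of 1 extraction period, and the genes it chose were tested in the 6 seedlings of the other, with the family set against the mean of the other families and treatment in the model. These are wider sets than the 63 genes, because 2 seedlings against 4 meet the rule far more often. On day 30 it chose 465 HV-11-higher, 109 HV-11-lower, 149 LAY-15-higher, 127 LAY-15-lower, 94 YORK-09-higher and 117 YORK-09-lower genes. On days 16 and 19 the numbers were 131, 130, 913, 566, 1049 and 148. In the earlier period YORK-09 had been extracted on its own day, so that family and day cannot be told apart there, and the 2 LAY-15 seedlings were the libraries that stood apart.

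In no set did edgeR call a gene after adjustment, and 0% of all genes were called. The smallest adjusted p was 0.15. At an unadjusted p under 0.05 in the chosen direction, the share among chosen genes exceeded that among all genes tested in 12 of 12 sets. A higher share does not mean that most chosen genes kept their direction, and those numbers are given below. The comparison with all genes was not matched for variability, and the rule favours genes that vary. Shares are over every chosen gene, and a gene that failed the filter on low counts in the tested seedlings was counted as not passing. The filter removed between 6 and 209 genes of each higher set and between 0 and 2 of each lower set. The sets of a period were tested in the same 6 seedlings, so the 12 sets are not separate agreements. No test of the difference in shares was made. Of the genes chosen on day 30 and tested on days 16 and 19, this held for 24 of 465 HV-11-higher genes (5.16%, beside 2.48% of all genes) and 8 of 109 HV-11-lower genes (7.34% beside 2.45%). It held for 37 of 149 LAY-15-higher (24.8% beside 10.3%) and 33 of 127 LAY-15-lower genes (26.0% beside 5.82%). It held for 24 of 94 YORK-09-higher (25.5% beside 8.45%) and 17 of 117 YORK-09-lower genes (14.5% beside 5.24%).

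With the periods exchanged, the HV-11 sets had the highest shares. Of the genes chosen on days 16 and 19 and tested on day 30, 33 of 131 HV-11-higher (25.2% beside 6.49% of all genes) and 22 of 130 HV-11-lower genes (16.9% beside 4.14%) had an unadjusted p under 0.05. The LAY-15 sets gave 48 of 913 (5.26% beside 3.26%) and 53 of 566 (9.36% beside 2.38%). The YORK-09 sets gave 83 of 1049 (7.91% beside 2.95%) and 15 of 148 (10.1% beside 3.12%). Of the HV-11 genes chosen on day 30, days 16 and 19 also chose 14 of 465 and 5 of 109, beside 131 and 130 of all 39373 genes. For LAY-15 these were 21 of 149 and 20 of 127, beside 913 and 566. For YORK-09 they were 19 of 94 and 7 of 117, beside 1049 and 148. Most genes chosen in 1 period thus did not meet the rule in the other, yet each share lay above that of all genes. All genes include those too low to meet the rule, and no test was made.

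**Figure D5:**
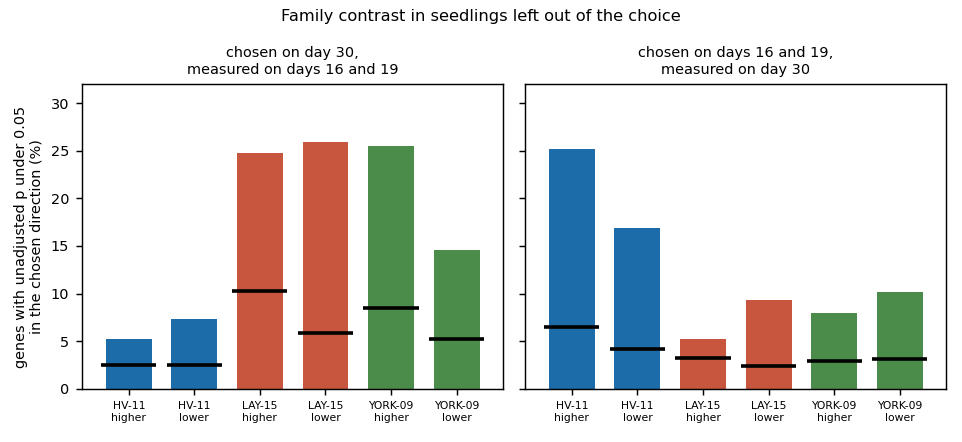
Percentage of genes with an unadjusted p under 0.05 in the chosen direction (edgeR) in the 6 seedlings that took no part in the choice, for genes chosen by the rule (bars) and for all genes tested (black lines), by family and direction. The bars run from 5.16% to 26.0% of all chosen genes and each lies above its line, while 0 genes passed after adjustment.

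The direction and size of the differences carried over unevenly, and single seedlings moved the size. By mean CPM, chosen genes kept their direction in these numbers, in the order HV-11, LAY-15 and YORK-09, higher before lower. Day 30 choices gave 203 of 465, 82 of 109, 103 of 149, 111 of 127, 76 of 94 and 74 of 117. Days 16 and 19 gave 102 of 131, 74 of 130, 442 of 913, 388 of 566, 422 of 1049 and 104 of 148. Genes without reads in any tested seedling counted as not keeping it. Medians are over the genes that passed the filter and are a description. A chosen gene at low counts in all tested seedlings failed the filter. The medians of the higher sets leave out such genes and can therefore be too high. On days 16 and 19, the genes chosen as higher on day 30 had median log2 differences of 1.86 for LAY-15, 1.78 for YORK-09 and 0.28 for HV-11. With each seedling left out in turn these ran from 1.01 (without LAY-15-34) to 1.96, from 1.00 (without YORK-09-03) to 2.66 (without LAY-15-34) and from -0.75 (without HV-11-05) to 0.77 (without LAY-15-34). The HV-11 median thus changed sign with its control seedling. Those chosen as lower had medians of -1.65 (-2.14 to -1.45), -0.52 (-0.52 to -0.46) and -0.70 (-1.26 without HV-11-33 to -0.36 without YORK-09-03).

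Genes chosen on days 16 and 19 had smaller medians on day 30, except for HV-11 higher. The HV-11 medians were 1.5 (1.26 to 1.81) for the higher and -0.16 (-0.62 without HV-11-34 to 0.03 without LAY-15-03) for the lower genes. Those of LAY-15 were 0.17 (-0.15 without LAY-15-09 to 0.48 without HV-11-34) and -0.33 (-0.50 without LAY-15-03 to -0.17 without HV-11-40). Those of YORK-09 were -0.03 over 996 genes tested (-0.24 without YORK-09-10 to 0.15 without HV-11-40) and -0.31 (-0.53 without YORK-09-10 to -0.25). The medians over all genes lay between -0.02 and 0.02.

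DESeq2 called genes at an adjusted p under 0.05 in these comparisons. Among genes chosen on day 30 it called 11 HV-11-higher (0.589% of all genes being called) and 5 HV-11-lower genes (0.69%), 24 LAY-15-higher (6.23%) and 31 LAY-15-lower genes (4.1%), and 18 YORK-09-higher (4.45%) and 12 YORK-09-lower genes (2.7%). Among genes chosen on days 16 and 19 it called 18 (2.28%) and 8 (1.26%) for HV-11, 17 (0.64%) and 25 (0.627%) for LAY-15, and 29 (0.585%) and 5 (0.842%) for YORK-09. It also called genes against the chosen direction. Among those chosen on day 30 these numbered 7 (0.69% of all genes being called in that direction) and 0 (0.589%) for HV-11. For LAY-15 they numbered 4 (4.1%) and 2 (6.23%), and for YORK-09 4 (2.7%) and 7 (4.45%). Among those chosen on days 16 and 19 they numbered 0 (1.26%) and 9 (2.28%) for HV-11. For LAY-15 they were 5 (0.627%) and 8 (0.64%), and for YORK-09 12 (0.842%) and 3 (0.585%). In the HV-11-lower set of the earlier period they outnumbered the 8 called in the chosen direction. The tools thus differed on whether single genes passed, with 2 seedlings in each family and 1 in each combination of family and treatment.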

How the data were processed

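Leaf RNA of 12 seedlings was enriched for polyadenylated transcripts and sequenced as paired reads. Per the labels and the study's methods the authors trimmed reads with cutadapt (version 2.3), aligned them to the valley oak genome with STAR (2.7.1), removed multiply placed reads with SAMtools (1.9) and, of the duplicates found with Picard (2.20.3), those arising on the sequencing platform, so that other duplicates remain in the counts, and counted fragments per gene with HTSeq (0.11.1); the strand option and the annotation version are not given in the sources used here. The deposited values are raw counts per gene, not normalized.

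From these counts CPM, the selection rule and all intervals were computed in Python (3.11.15). Tests used edgeR (4.0.16) in R (4.3.3) with TMM scaling and genes filtered by family and treatment (minimum count 10, minimum total 15); DESeq2 (1.42.0) was an alternative. All 12 libraries and 39373 genes were used. The 2 genes of largest separation per family and direction are named. The genes, rule and tests were chosen with earlier results of these data known. Extraction day entered the treatment model as in the study. Seedlings of a family and extraction day form 6 pairs by the labels, and a fit with these pairs as a block was an alternative. The labels give separate seedlings as replicates. Scripts were tested on simulated data.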

Additional observations from a re-analysis of the deposited data

Results flagged for a closer look

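Among the 25 genes named by rule or found in runs of neighbours, 45 groups of 4 seedlings averaged at least 1 CPM and were examined for a seedling far from the rest of its family by Dixon's ratio at its 95% critical value for 4 values. It singled out 3 groups, where chance gives about 1 in 20. QL04p093061, an HV-11-higher gene, was at 2.01 CPM in LAY-15-34, with the next LAY-15 seedling at 4.32 CPM (ratio 0.875). QL04p095134, a LAY-15-higher gene, was at 6.81 CPM in YORK-09-08, with the next YORK-09 seedling at 1.04 CPM (ratio 0.848), and this seedling brought the gene close to the limit of the rule. QL07p000978, a LAY-15-lower gene, was at 11.7 CPM in HV-11-05 and at 5.83 CPM in the next HV-11 seedling (ratio 0.892). None of these seedlings belonged to the family that the gene marks.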

How the results depend on the processing

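Numbers are given in the order HV-11 higher, HV-11 lower, LAY-15 higher, LAY-15 lower, YORK-09 higher and YORK-09 lower, for which the rule gave 11, 2, 18, 13, 13 and 6 genes. A fold of 4 gave 3, 1, 12, 4, 3 and 1 genes, and a fold of 1.5 gave 12, 9, 26, 29, 20 and 9. A level of 5 CPM gave 5, 1, 9, 4, 7 and 1, and a level of 0.5 CPM gave 14, 3, 25, 17, 15 and 6. TMM library sizes gave 8, 3, 18, 13, 10 and 6. Fewer seedlings relax the rule by construction: day 30 alone gave 465, 109, 149, 127, 94 and 117, days 16 and 19 alone 131, 130, 913, 566, 1049 and 148, control seedlings alone 186, 98, 181, 228, 184 and 98, and treated seedlings alone 155, 78, 139, 203, 205 and 123. Leaving out both day 19 LAY-15 seedlings gave 12, 8, 70, 40, 20 and 16. Leaving out each seedling in turn gave ranges of 11 to 39, 2 to 10, 19 to 43, 15 to 36, 13 to 40 and 6 to 11.

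The counts of called genes stayed at 0 of the 63 for treatment in all 20 alternatives and for extraction time in all 16. Within families they stayed at 0 of the own genes with DESeq2 and with extraction time in the model. In these fits edgeR called 0 of all genes, so its counts could not set the 63 genes apart. DESeq2 called 23, 40 and 61 of all 23791 genes for treatment and 57 for extraction time. Within HV-11, LAY-15 and YORK-09 it called 72, 75 and 66. With the 6 pairs of family and extraction day as a replicate block, edgeR and DESeq2 both called 0 of 63, beside 0 and 61 of all 23791 genes. The DESeq2 fits with the pairs and with family and day were chosen after seeing the data. For genes chosen in 1 period and tested in the other, edgeR called 0 of them and 0 of all genes, at a fold of 2 and of 4. DESeq2 called 11, 5, 24, 31, 18 and 12 of those chosen on day 30 and 18, 8, 17, 25, 29 and 5 of those chosen on days 16 and 19, and the cause of the difference between tools was not tested. With a held-out seedling left out, its family kept 1 seedling in the fit, so shares of small p-values are not given for those fits. Of the median differences of the chosen genes, 4 of the 12 changed sign when a seedling was left out.

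At 9.93 to 11.6 reads per CPM, a level of 1 CPM is a small count, and a low side of at most 3 reads was not distinguishable from 0 at this depth.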
